A study of Sus scrofa with 12 samples.

Results

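The genes described here are 9 regulators and caspases of apoptosis: BAX, BAK1, BID, BCL2, BCL2L1, MCL1, CASP8, CASP9 and FAS. They were taken from the deposited gene table of piglet jejunum by gene name, and rows that share a name were summed. Of the 9 names, 6 had a row, namely BAK1, BID, BCL2L1, MCL1, CASP9 and FAS, out of 17049 gene names in the table. BID was the sum of 2 rows and each of the other 5 had 1. BAX, BCL2 and CASP8 had no row under those names. CASP8 had rows under its Ensembl identifier ENSSSCG00000028157 and its values are given beside the 6, while BAX and BCL2 were not analysed here. All 6 named members passed the filter on low values (mean of 0.5 FPKM or more in the 12 libraries), as did CASP8, and 12886 gene names passed it in all.

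The samples were jejunum of 12 pigs in 4 groups of 3, with 1 poly(A) RNA library each. W_Con were sucking piglets of 21 days, taken on the day of weaning, whose sows ate a corn and soybean meal diet without additive. PW_Con were piglets of the same kind of litter at 28 days, 7 days after weaning. W_Res and PW_Res had the same ages, but their sows received resveratrol, a plant polyphenol, at 300 mg/kg of that diet through most of gestation and through lactation, so the compound was given to the mother and not to the weaned piglet. Litters had been evened out by fostering between sows of the same diet. The records and the study's methods differ on the animals: the records name semen of Landrace boars, the methods Yorkshire × Duroc litters and 1 male piglet per litter. By those methods piglets of both ages were taken from the same litters, so W_Con and PW_Con may hold littermates. No litter is named for a library. Age and weaning changed together, and no unweaned piglets of 28 days were included, so those factors cannot be told apart. Depth was not analysed here because the table holds FPKM (fragments scaled to transcript length and to the mapped total of the library) and no counts.

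Apoptosis is run by enzymes called caspases, which are switched on along a mitochondrial route and a death receptor route. On the mitochondrial route BAX and BAK1 open the outer mitochondrial membrane, which BCL2, BCL2L1 and MCL1 prevent, and released cytochrome c then activates CASP9. On the receptor route FAS, bound by its ligand, activates CASP8, which can cut BID and so join both routes. In the small intestine the epithelium is renewed continuously from the crypts, and enterocytes are shed at the villus tip. These proteins are controlled largely after transcription, by cleavage, binding and degradation, and mRNA levels do not measure caspase activity.

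Markers of the tissue were checked first. The villus genes KRT20 (442 to 1257 FPKM) and VIL1 (296 to 1062 FPKM) were high in all 12 libraries. Genes that differ along the length of the small intestine varied widely: FABP6, an ileal bile acid binding protein, ranged from 1.70 to 24110 FPKM, and GATA4, a factor of the proximal intestine, from 0.758 to 24.1 FPKM. Libraries W_Res 2 and W_Res 3 stood apart, with a median FPKM over all loci of 1.12 and 0.836 against 0.238 to 0.479 in the other 10. The 3 W_Res libraries also had the highest sums of 5 smooth muscle markers, 644 to 3855 FPKM against 148 to 621 FPKM elsewhere. Results that rest on W_Res are therefore given also without W_Res 2 and W_Res 3 where their call changed. In bulk tissue fewer cells of a type and less RNA per cell cannot be told apart.

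The members spanned a wide range of levels. MCL1 had the highest mean over the 12 libraries at 60.8 ± 12.5 FPKM (SD, n = 12). BAK1 followed at 23.0 ± 5.11 and BID at 19.2 ± 3.85 FPKM. BCL2L1 had 10.5 ± 2.20, CASP9 7.38 ± 0.745 and FAS 4.0 ± 1.93 FPKM. MCL1 was above BAK1 in 12 of 12 libraries and their ranges did not overlap, and the same held for BID above BCL2L1. BAK1 exceeded BID in only 9 of 12 libraries, so these neighbours were not separated beyond their spread. BCL2L1 exceeded CASP9, and CASP9 exceeded FAS, in 11 of 12 libraries each, with overlapping ranges. CASP9 varied least, 1.39-fold between its lowest and highest library, and its SD within groups was smaller than that of all but 2.13% of the genes tested. FAS varied most of the 6, 4.52-fold, and 76.1% of genes had a smaller SD within groups.

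**Figure D1:**
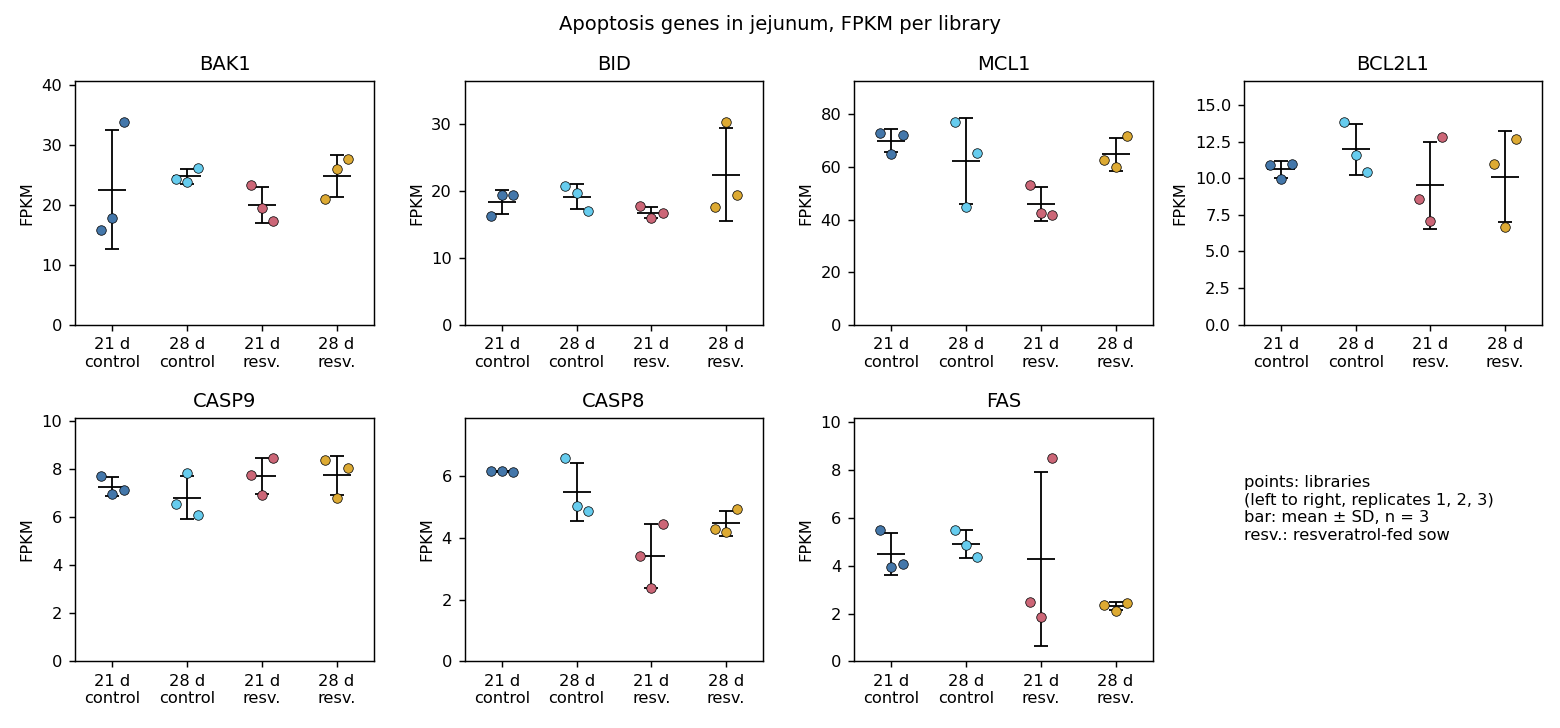
FPKM of the 6 members and CASP8 (vertical axes, each from 0) in the 4 groups, with a point per library and a bar for the mean ± SD (n = 3). MCL1 and CASP8 lie lower in the 3 resveratrol libraries at 21 days than in the 3 controls of that age, and FAS in PW_Res lies between 2.11 and 2.44 FPKM.

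The pore-forming and activating members come first. BAK1, which forms the mitochondrial pore, read 15.8, 17.9 and 33.9 FPKM in W_Con and 24.3, 23.8 and 26.1 FPKM in PW_Con. It read 23.3, 19.4 and 17.2 FPKM in W_Res and 21.0, 25.9 and 27.6 FPKM in PW_Res. The groups overlapped in each comparison, and the highest of the 12 values was W_Con 3. The log2 fold change at weaning was 0.21 ± 0.25 (SE) in control litters, with a limma unadjusted P of 0.430. Without W_Con 3 it was 0.53 (limma unadjusted P = 0.0201), so that library decided on which side of 0.05 this comparison lay. In resveratrol litters the weaning change was 0.30 ± 0.25, and the diets differed by -0.10 at 21 days and by less than 0.01 at 28 days.

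BID, the protein that carries the receptor signal to mitochondria, read 16.3, 19.4 and 19.5 FPKM in W_Con and 20.7, 19.7 and 17.1 FPKM in PW_Con. It read 17.7, 15.9 and 16.7 FPKM in W_Res and 17.6, 30.4 and 19.4 FPKM in PW_Res. Apart from PW_Res 2, at 30.4 FPKM, the libraries lay within a narrow band. The weaning change was 0.06 ± 0.20 in control litters and 0.36 ± 0.20 in resveratrol litters (limma unadjusted P = 0.0983). The latter passed 0.05 after median-of-ratios rescaling, at 0.57 (limma unadjusted P = 0.0253), and without PW_Res 1, at 0.51 (limma unadjusted P = 0.0361). Without PW_Res 2, the library at 30.4 FPKM, it was 0.13 (limma unadjusted P = 0.461). The diets differed by -0.12 ± 0.20 at 21 days and 0.19 ± 0.20 at 28 days.

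MCL1, a short-lived survival protein that holds BAK1 in check, gave the clearest contrast among the named members. It read 73.0, 64.9 and 72.1 FPKM in W_Con against 53.3, 42.5 and 41.7 FPKM in W_Res, and the groups did not overlap. The 28-day levels were 77.3, 44.9 and 65.1 FPKM in PW_Con and 62.8, 59.9 and 72.0 FPKM in PW_Res, which overlapped. At 21 days MCL1 was lower with resveratrol by a log2 fold change of -0.61 ± 0.21 (95% interval -1.06 to -0.15), with a limma unadjusted P of 0.0132 and an adjusted p of 0.167. From W_Res to PW_Res it was higher by 0.50 ± 0.21 (limma unadjusted P = 0.0346, adjusted p = 0.251), again without overlap. In control litters the weaning change was -0.20 ± 0.21, with the 95% interval from -0.65 to 0.26. The difference between the weaning changes was 0.69 ± 0.29 (limma unadjusted P = 0.0368, adjusted p = 0.334).

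For MCL1 the diet difference at 21 days, the weaning change in resveratrol litters and the difference of weaning changes were past an unadjusted 0.05, and none of them was past an adjusted 0.05 or a log2 fold change of 1. Leaving out each library in turn kept the 21-day diet difference between -0.72 and -0.54 and its unadjusted limma P under 0.05 in 12 of 12 fits. Without W_Res 2 and W_Res 3 together, which leaves 1 library in that group, assumed to vary like the others, it was -0.38 (limma unadjusted P = 0.220). The weaning change in resveratrol litters had an unadjusted limma P under 0.05 in 8 of 12 such fits, and lost it without W_Res 2, W_Res 3, PW_Res 1 or PW_Res 3 (0.42 to 0.52). It was 0.27 (limma unadjusted P = 0.372) without W_Res 2 and W_Res 3 together and 0.41 (limma unadjusted P = 0.0660) after quantile normalization. The difference of weaning changes kept it in 6 of 12 fits, lost it without W_Con 1, W_Con 3, W_Res 2, W_Res 3, PW_Con 2 or PW_Res 3, and was 0.47 (limma unadjusted P = 0.221) without W_Res 2 and W_Res 3 together. After quantile normalization it was 0.61 (limma unadjusted P = 0.0568).

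Marker levels moved alongside MCL1. In W_Res, KRT20 read 691, 442 and 514 FPKM against 1022, 876 and 1131 FPKM in W_Con, a limma log2 fold change of -0.90 ± 0.25 (unadjusted P = 0.00429). All 6 villus markers tested were lower in W_Res, 1 of them with an unadjusted P under 0.05. Of the 5 smooth muscle markers tested, all were higher in W_Res and 4 met the study's standard. The summed smooth muscle level was 1756, 3855 and 644 FPKM in W_Res 1, 2 and 3, while MCL1 was lowest in W_Res 3, whose sum lay just above the highest of the other groups, 621 FPKM. The part of tissue composition in the MCL1 difference was not tested.

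**Figure D2:**
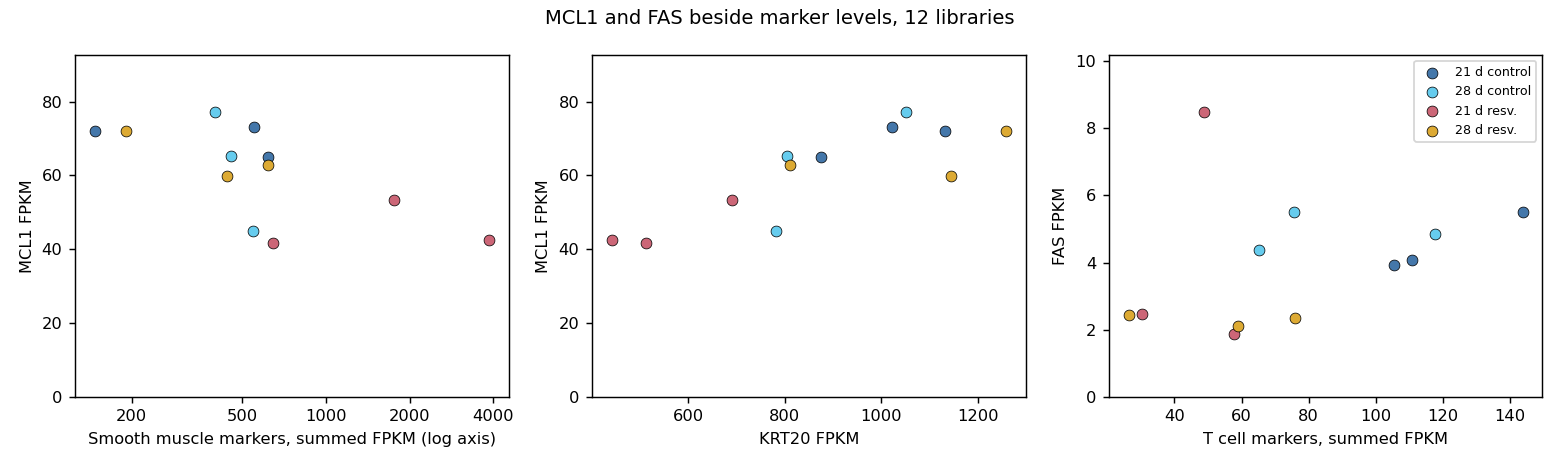
MCL1 against the summed smooth muscle markers (log axis) and against KRT20, and FAS against the summed T cell markers, all in FPKM with a point per library. The 3 W_Res libraries combine MCL1 of 41.7 to 53.3 FPKM with the lowest KRT20 levels, 442 to 691 FPKM.

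BCL2L1, which encodes the survival protein BCL-xL, read 10.9, 9.92 and 11.0 FPKM in W_Con and 13.9, 11.6 and 10.4 FPKM in PW_Con. The resveratrol litters were more scattered, with 8.61, 7.08 and 12.8 FPKM in W_Res and 11.0, 6.69 and 12.7 FPKM in PW_Res. The groups overlapped in each comparison. The estimates were 0.15 ± 0.25 for weaning in control litters, 0.08 ± 0.25 for weaning in resveratrol litters, -0.18 ± 0.25 for diet at 21 days and -0.25 ± 0.25 for diet at 28 days. The 95% interval for weaning in control litters ran from -0.39 to 0.70, which leaves room for a change of up to that size either way.

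Ratios between members within a library are free of scaling between libraries. The ratio of BAK1 to BCL2L1 ran from 1.34 (W_Res 3) to 3.87 (PW_Res 2). The ratio of BAK1 to MCL1 was 0.216, 0.275 and 0.470 in W_Con and 0.437, 0.457 and 0.414 in W_Res, so W_Con 3 lay above the 3 resveratrol libraries and the other 2 below them. MCL1 to BCL2L1 was 6.70, 6.55 and 6.57 in W_Con and 6.20, 6.01 and 3.25 in W_Res. A BAX to BCL2 ratio could not be formed.

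**Figure D3:**
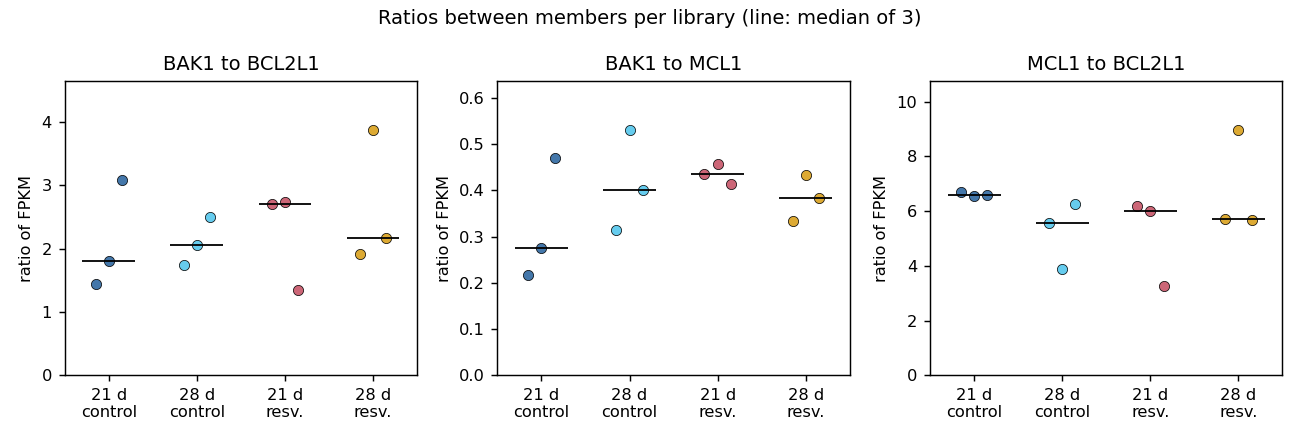
Ratios of FPKM between BAK1, BCL2L1 and MCL1 (vertical axes from 0) in the 4 groups, a point per library and a line at the median of 3. The BAK1 to MCL1 ratio runs from 0.216 to 0.530, and W_Con spans most of that range.

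CASP9, the initiator caspase of the mitochondrial route, read 7.69, 6.97 and 7.14 FPKM in W_Con and 6.54, 7.81 and 6.08 FPKM in PW_Con. It read 7.76, 6.92 and 8.44 FPKM in W_Res and 8.35, 6.81 and 8.05 FPKM in PW_Res. All groups overlapped, and CASP9 had the narrowest intervals of the 6. The weaning estimates were -0.09 in control litters, with a 95% interval of -0.44 to 0.26, and less than 0.01 in resveratrol litters. The diet estimates were 0.07 ± 0.16 at 21 days, which turned to -0.01 after median-of-ratios rescaling and to -0.03 after quantile normalization, and 0.16 ± 0.16 at 28 days.

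CASP8, the initiator caspase of the receptor route, read 6.16, 6.15 and 6.14 FPKM in W_Con and 3.41, 2.39 and 4.44 FPKM in W_Res. At 28 days it read 6.57, 5.01 and 4.88 FPKM in PW_Con and 4.29, 4.18 and 4.94 FPKM in PW_Res. The 21-day groups did not overlap, and the 3 control values lay unusually close together. At that age CASP8 was lower with resveratrol by -0.72 ± 0.20 (limma unadjusted P = 0.00338, adjusted p = 0.121). Leaving out each library in turn gave -0.89 to -0.55, with an unadjusted limma P under 0.05 in 12 of 12 fits. Without W_Res 2 and W_Res 3 it was -0.70 (limma unadjusted P = 0.0132). Of the 6 T cell markers, 5 were lower in W_Res than in W_Con, 4 of them past the study's standard, and 1 was higher. The part of cell composition in the CASP8 difference was not tested. The other comparisons of CASP8 gave -0.15 for weaning in control litters, 0.33 in resveratrol litters and -0.24 for diet at 28 days, each with overlapping groups. The weaning value in resveratrol litters passed an unadjusted limma P of 0.05 after median-of-ratios rescaling (0.50), after quantile normalization (0.58) and without W_Res 3 (0.50), and was 0.16 without W_Res 2. The CASP8 difference between the weaning changes was 0.48 ± 0.28 (limma unadjusted P = 0.108). It passed 0.05 after quantile normalization, at 0.73 (limma unadjusted P = 0.0446), and without W_Res 3, at 0.65 (limma unadjusted P = 0.0311), and was 0.31 without W_Res 2.

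FAS, the death receptor, read 5.51, 3.94 and 4.07 FPKM in W_Con and 5.51, 4.85 and 4.37 FPKM in PW_Con. It read 2.34, 2.11 and 2.44 FPKM in PW_Res, below every control library. W_Res held both the lowest and the highest FAS value of the 12, with 2.48, 1.88 and 8.50 FPKM. At 28 days FAS was lower with resveratrol by -0.84 ± 0.36 on the log2(FPKM + 1) scale (95% interval -1.62 to -0.05, limma unadjusted P = 0.0381, adjusted p = 0.621). The unadjusted limma P rose above 0.05 when any 1 of the 6 libraries of 28 days was left out (-0.90 to -0.77), and fell to 0.0014 when those 6 were fitted alone. It was also above 0.05 after median-of-ratios rescaling (0.0625) and quantile normalization (0.104).

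At 21 days the FAS estimate was -0.26 ± 0.36, and its sign depended on single libraries. Without W_Res 2 it was 0.07, and without both W_Res 2 and W_Res 3, which leaves W_Res 1 alone in its group, it was -0.65. Without W_Res 3 it was -0.79 (limma unadjusted P = 0.00253), so that the 2 remaining W_Res libraries lay below the 3 controls. For weaning the FAS estimate was 0.11 ± 0.36 in control litters and -0.47 ± 0.36 in resveratrol litters. The latter was -0.80 (limma unadjusted P = 0.0423) without W_Res 2, 0.06 without W_Res 3 and -0.08 without both. T cells carry FAS. The summed level of 6 T cell markers was 65.2 to 118 FPKM in PW_Con and 26.4 to 76.1 FPKM in PW_Res, and 2 of the 6 were lower with an unadjusted limma P under 0.05. At 21 days that sum was 105 to 144 FPKM in W_Con and 30.4 to 57.6 FPKM in W_Res, and it was 48.9 FPKM in W_Res 3, the library with the highest FAS. The part of T cells in the FAS levels was not tested.

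Read together per comparison, no member as fitted met the study's standard, an unadjusted P under 0.05 with a log2 fold change above 1 or below -1. With a pseudocount of 0.1, FAS met it between the diets at 28 days (-1.06, limma unadjusted P = 0.0335). With weaning in control litters, 0 of 6 members had an unadjusted limma P under 0.05 and 0 of 6 had an adjusted p under 0.05, against 15.3% and 0% of all genes, and 3.1% of genes met the standard. None had groups that did not overlap, against 24.9% of genes. The median of the 6 was 0.08, beside -0.01 for all genes. With weaning in resveratrol litters 1 of 6 (MCL1) was past an unadjusted 0.05, against 17.6% of genes, 1 of 6 did not overlap, against 21.7%, and 4.94% of genes met the standard. Here the median of all genes was -0.15, a shift that median-of-ratios rescaling removed, and after it MCL1 stood at 0.71.

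With resveratrol at 21 days 1 of 6 (MCL1) was past an unadjusted limma P of 0.05, against 18.5% of genes, and 1 of 6 did not overlap, against 21%, while 4.77% of genes met the standard. An adjusted p under 0.05 was reached by 6 genes (0.0466%) and by no member, and the count of genes was 120 without W_Res 1 and 109 without W_Res 3. The median of the members was -0.15 and that of all genes 0.08, and 5 of 6 members had an estimate below 0. At 28 days 1 of 6 (FAS) was past 0.05, against 7.76% of genes, and 1 of 6 did not overlap, against 17.2%, while 1.55% of genes met the standard. The difference of weaning changes was past 0.05 for 1 of 6 (MCL1), against 13.7% of genes, and 7.76% met the standard. With only 6 members, a single gene sets whether a share lies above or below that of all genes. The 2 diet and the 2 weaning comparisons share libraries and are not independent of each other. An exact permutation test of 3 against 3 libraries cannot go below 0.1.

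**Figure D4:**
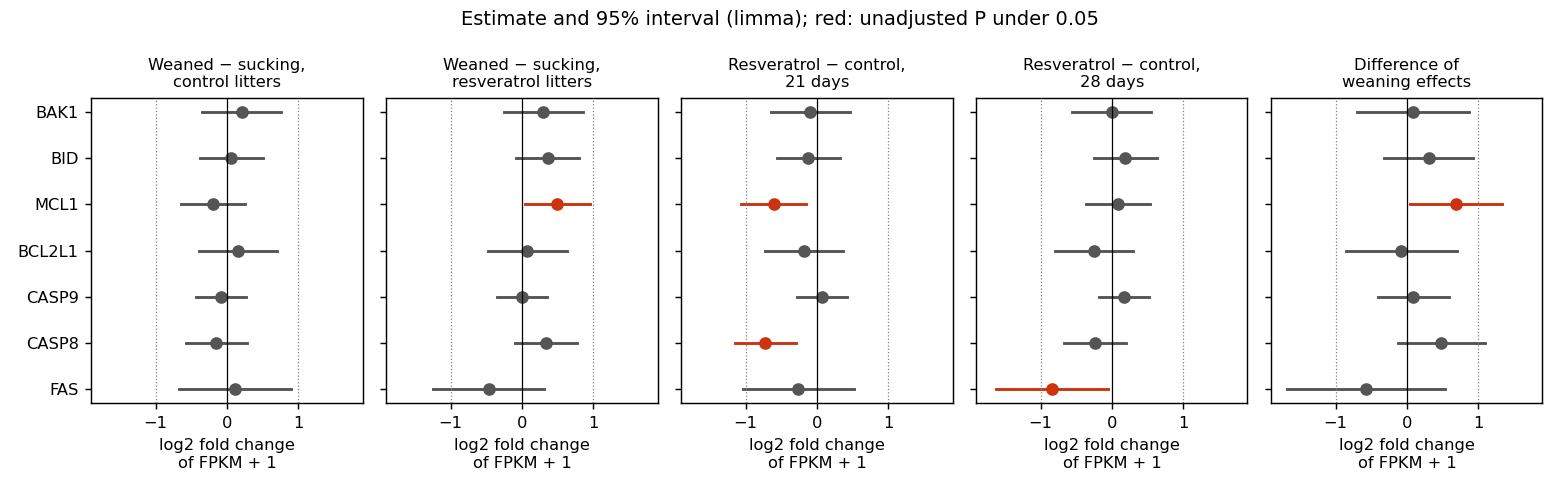
Log2 fold change of FPKM + 1 (horizontal axes) with its 95% interval from limma for the 6 members and CASP8 in the 4 comparisons and for the difference of weaning changes, red where the unadjusted P is under 0.05. Every estimate lies between -1 and 1 (dotted lines), and MCL1, CASP8 and FAS account for the red intervals.

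The wider pathway was described with 47 other apoptosis genes, of which 27 had a row and 25 were tested. APAF1 had no row under that name. With weaning in control litters 6 of 25 had an unadjusted limma P under 0.05, 4 higher and 2 lower, and 1 met the standard, against 15.3% and 3.1% of all genes. In the same comparison the estimates of all 5 B cell and plasma cell markers were above 0 (median 1.04) and CD79B met the standard at 2.05, while the villus marker FABP2 met it at -2.20. The 3 proximal intestine markers were below 0 (median -1.25) and the 3 distal ones above 0 (median 0.78), none with an unadjusted limma P under 0.05. The part of cell makeup and of position in these weaning differences was not tested. BAD, a BH3-only protein that opposes BCL-xL, read 3.68, 3.69 and 3.04 FPKM in W_Con and 5.91, 6.34 and 7.52 FPKM in PW_Con, a change of 0.76 ± 0.18 (limma adjusted p = 0.0979).

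BIRC6, a large inhibitor of apoptosis, was lower by -0.66 ± 0.17, and both the nuclease gene ENDOG (0.59) and the TNF receptor gene TNFRSF1A (0.54) were higher. TP53I3, a p53 target, differed by -0.66 with overlapping groups (limma unadjusted P = 0.0498, exact permutation p = 0.3), and by -0.46 without W_Con 3 (limma unadjusted P = 0.183). Its limma P stayed under 0.05 in 4 of the 12 fits that left out 1 library. The unadjusted limma P of ENDOG stayed under 0.05 in 5 of 12 fits that left out a library, and not with the replicate block, and that of TNFRSF1A in 9 of 12, with 0.35 (limma unadjusted P = 0.142) without W_Con 3. The gene that met the standard was FADD, the adaptor between FAS and CASP8, with 2.93, 0.480 and 0 FPKM in W_Con and 1.97, 4.78 and 3.56 FPKM in PW_Con, which overlap. FASLG, the FAS ligand, was at 0.857 to 3.93 FPKM in W_Con and 1.21 to 1.47 FPKM in PW_Con. XIAP, which blocks CASP9, was scattered in each group, for example 5.76, 0.768 and 0.384 FPKM in PW_Con, and neither gene passed an unadjusted 0.05 in any of the 5 limma contrasts as fitted.

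In the comparison of diets at 21 days 5 of the 25 pathway genes had an unadjusted limma P under 0.05, 4 of them lower with resveratrol, and 3 met the standard, all lower, against 18.5% and 4.77% of all genes. The median of the 25 was -0.27, beside 0.08 for all genes. TNFSF10, the death ligand TRAIL, read 30.4, 22.3 and 28.9 FPKM in W_Con and 9.32, 6.74 and 3.72 FPKM in W_Res, a difference of -1.95 ± 0.33 (limma adjusted p = 0.0741). CASP10, a receptor-route caspase related to CASP8, read 10.9, 10.3 and 11.4 FPKM against 5.83, 1.68 and 1.92 FPKM, a difference of -1.66 ± 0.36 (limma adjusted p = 0.0935). These genes and CASP8 were each lower in every W_Res library than in every W_Con library.

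CYCS, cytochrome c, read 101, 79.7 and 110 FPKM in W_Con and 71.8, 25.3 and 35.9 FPKM in W_Res, a difference of -1.23 ± 0.34 (limma adjusted p = 0.123). It no longer met the standard without W_Res 2 (-0.91). BIRC6 differed by -0.68 ± 0.17 and BAD, in the other direction, by 0.54 ± 0.18. Without W_Res 2 and W_Res 3 together, CASP10 (-0.80) and CYCS (-0.42) no longer met the standard, and BAD stood at 0.44 (limma unadjusted P = 0.103). Of the 6 T cell markers 4 met the standard in this comparison, all lower in W_Res, and the part of cell composition in the pathway differences was not tested.

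With weaning in resveratrol litters 3 of 25 pathway genes had an unadjusted limma P under 0.05 and 1 met the standard, against 17.6% and 4.94% of all genes. The estimates of all 5 smooth muscle markers were below 0 in PW_Res against W_Res (median -2.48), and 4 met the standard. Of the 6 villus markers tested, 4 had estimates above 0 and 2 below, with a median of 0.0066. Among them KRT20 (0.96 ± 0.25, limma unadjusted P = 0.00264) and VIL1 (0.85 ± 0.35, limma unadjusted P = 0.0341) were higher without overlap. The part of tissue composition in the weaning changes of resveratrol litters was not tested. TNFSF10 was higher in PW_Res, at 17.8, 23.0 and 12.4 FPKM, by 1.34 ± 0.33 (limma adjusted p = 0.130), and met the standard. DFFA, the inhibitor of the apoptotic nuclease, was lower by -0.47 ± 0.16 without overlap, and CYCS was higher by 0.89 ± 0.34 with overlap. TNFSF10 stood at 0.82 without W_Res 2 and W_Res 3 and then missed the standard. CYCS stood at 0.07 without them, and lost an unadjusted 0.05 without W_Res 2 (0.56), W_Res 3 or PW_Res 2. After median-of-ratios rescaling CYCS met the standard, at 1.101 (limma unadjusted P = 0.008528). It also met the standard without W_Res 1, at 1.296 (limma unadjusted P = 0.0007184), and without PW_Res 3, at 1.007 (limma unadjusted P = 0.02578). DFFA stood at -0.31 without W_Res 2 and W_Res 3 together and at -0.28 (limma unadjusted P = 0.110) after median-of-ratios rescaling.

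At 28 days 5 of 25 pathway genes had an unadjusted limma P under 0.05 between the diets, all lower in PW_Res, and 1 (FADD) met the standard, against 7.76% and 1.55% of all genes. FADD was listed at 0 FPKM in the 3 PW_Res libraries against 1.97, 4.78 and 3.56 FPKM in PW_Con, and it was also listed at 0 in W_Con 3, W_Res 2 and W_Res 3. No fold is given for it. TNF, an inflammatory death ligand, read 5.48, 2.19 and 3.89 FPKM in PW_Con and 1.70, 1.43 and 1.15 FPKM in PW_Res, a difference of -0.95 ± 0.27 (limma adjusted p = 0.466). ENDOG (-0.67), BIRC2 (-0.65), an inhibitor of apoptosis in TNF receptor signalling, and BAD (-0.57) were lower without overlap, but ENDOG lost an unadjusted 0.05 without PW_Con 2, PW_Con 3 or PW_Res 2, and BIRC2 without PW_Con 1 or PW_Res 3. FASLG read 1.21, 1.28 and 1.47 FPKM in PW_Con and 0.540, 0.762 and 0.126 FPKM in PW_Res, with a limma unadjusted P of 0.0778. It met the standard with a pseudocount of 0.1 (-1.51, limma unadjusted P = 0.0386). Pathway genes that did not overlap were 7 of 25 with weaning in control litters (24.9% of all genes) and 3 of 25 in resveratrol litters (21.7%). For diet at 21 days they were 5 of 25 (21%). Between the diets at 28 days 7 of 25 did not overlap, against 17.2% of all genes. Markers moved with these groups: all 6 T cell and all 5 B cell and plasma cell markers tested had estimates below 0 in PW_Res, as did the 3 distal intestine markers (median -1.63), while the 3 proximal ones were above 0 (median 1.48, 1 of them past the standard). Of the 7 crypt and cell division markers, 5 were below 0 and 2 above, and TOP2A met the standard at -1.11 without overlap. FABP6 was at 6518 to 9621 FPKM in PW_Con, and at 24110, 1.70 and 4.81 FPKM in PW_Res. The part of cell makeup and of position along the intestine in the differences at 28 days was not tested.

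**Figure D5:**
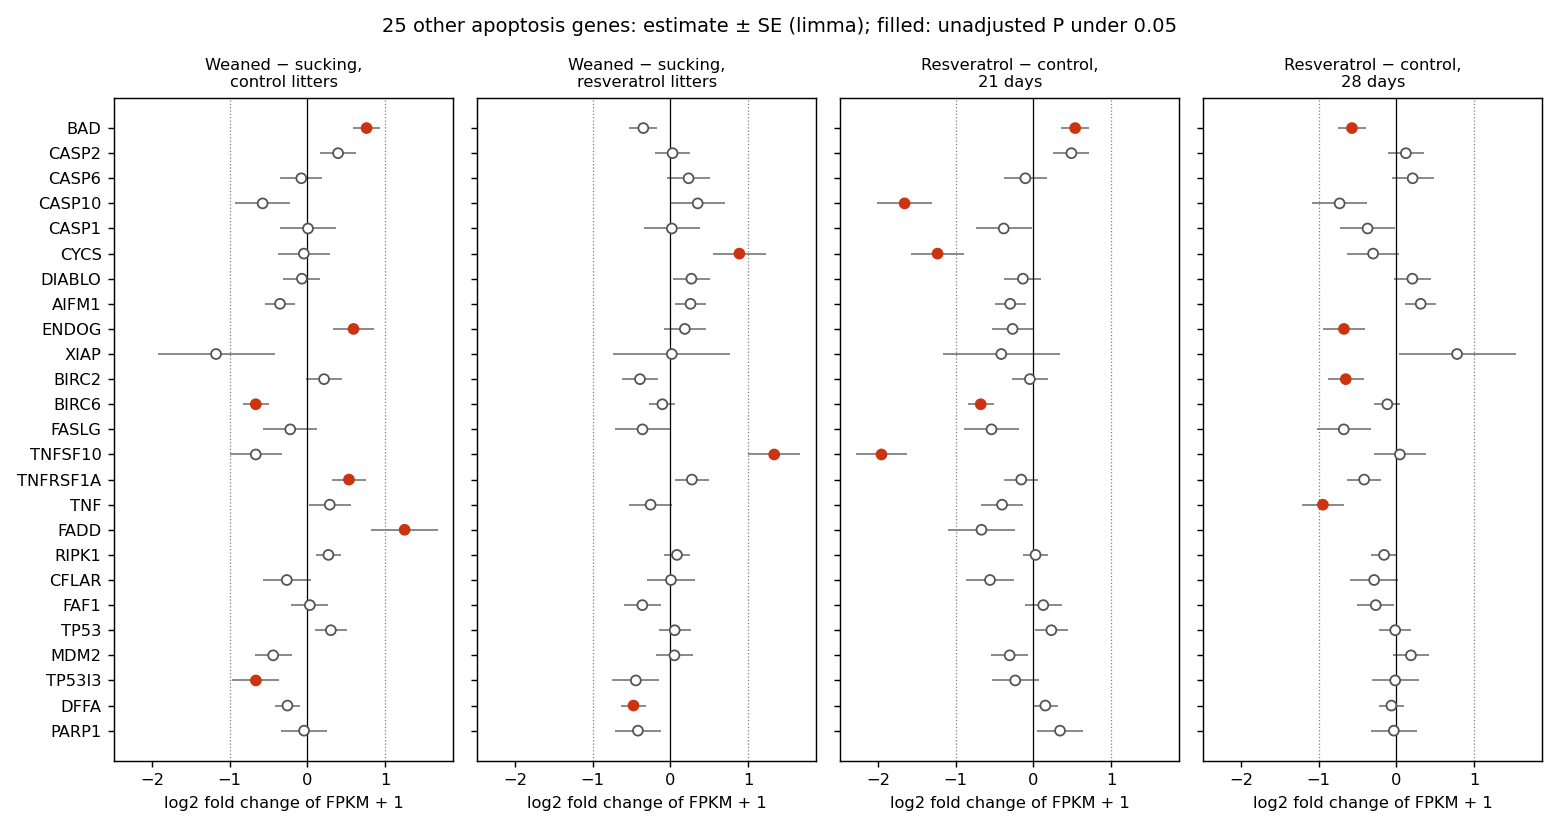
Log2 fold change of FPKM + 1 ± SE from limma (horizontal axes) for the 25 other apoptosis genes in the 4 comparisons, filled where the unadjusted P is under 0.05. FADD is not drawn where a group is listed at 0 throughout. TNFSF10, CASP10 and CYCS lie below -1 in the comparison of diets at 21 days.

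Patterns over the 12 libraries were compared last, as a description, since the points share groups and library effects. Among named genes with a mean of at least 5 FPKM, MCL1 was most like KRT20 (Pearson r = 0.85 over 12 libraries) and GPA33 (0.84), an epithelial surface antigen. FAS was most like CXCL10 (0.92), an interferon-induced chemokine, and RNF19B (0.91). BAK1 was nearest to COX4I1 (0.87) and SPTLC2 (0.87), and BID to PSMD4 (0.85) and TOE1 (0.84). BCL2L1 was nearest to LMBRD1 (0.84) and KIAA1211 (0.78), and CASP9 to KMT2D (0.78) and ZFYVE19 (0.77). Between members the highest r was 0.68, for BCL2L1 and FAS, and the lowest -0.31, for MCL1 and CASP9.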

How the data were processed

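Jejunum poly(A) RNA of 12 piglets was sequenced as paired ends by Illumina. The authors deposited FPKM values for 41264 loci, of which 17650 (42.8%) carry no gene name and were left out here. The study's methods name TopHat, StringTie and Ballgown, while the submitters' processing notes name HISAT2 2.0, Bowtie 0.12.2 and StringTie 1.3.0 and the builds Sscrofa10.2 and mm8, without saying which step used which. Multi-mapped reads and assembly of loci can shift values of single genes, and any further scaling of libraries is not given in the sources used here.

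Rows sharing a gene name were summed, names with a mean under 0.5 FPKM dropped, and log2(FPKM + 1) fitted in limma 3.58.1 (R 4.3.3; lmFit, eBayes with trend), 1 mean per group over 12 libraries. The 5 contrasts were adjusted by Benjamini-Hochberg over 12886 names, except for CASP8. Fold changes on this scale understate changes of low genes. P-values rest on the spread between 3 piglets per group, pooled over the 4 groups and moderated across genes. Groups outside a comparison therefore also affect its P. The fit was tested on simulated data with independent noise per gene and added changes larger than any estimate of the members. The simulation held no shifts of whole libraries, so it does not bear on the member estimates. The 6 members, CASP8, 8 or fewer pathway genes per comparison (unadjusted P under 0.05, no overlap, by size), APAF1, XIAP, FASLG and the 2 nearest genes per member were named by rule; FADD, TP53I3 and CYCS at weaning, and the markers, were added after their values were seen. The members and lists were chosen with earlier results of these data known. Some genes of the pathway are not reported here. CASP8 was matched by the Ensembl identifier given in a pig reference table. Its estimates and adjusted p came from a separate fit of 12858 names, in which Ensembl identifiers were given their symbol. Alternatives were another pseudocount (0.1), filters (none, 5 FPKM), quantile normalization, median-of-ratios rescaling, no eBayes trend, a replicate block, the highest row per name, 6-library fits, Ensembl names and leaving out libraries.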

Additional observations from a re-analysis of the deposited data

Results flagged for a closer look

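For 5 genes the change from 21 to 28 days differed between control and resveratrol litters by a limma test of that difference (unadjusted P under 0.05, n = 3 libraries per group), and none had an adjusted p under 0.05. The difference, resveratrol minus control litters, in 4 of them was 0.69 for MCL1, -1.11 for BAD, 0.56 for BIRC6 and 2.00 for TNFSF10. FADD also passed (limma unadjusted P = 0.0370), but no value is given because it was listed at 0 throughout PW_Res. Without W_Res 2 and W_Res 3 together the MCL1 and BIRC6 differences were 0.47 and 0.52 and no longer past 0.05, and the BIRC6 difference also lost it without W_Con 1, W_Con 3, W_Res 2, PW_Con 2, PW_Con 3, PW_Res 1 or PW_Res 2. For BAD the change was 0.76 in control litters and -0.35 in resveratrol litters. Every library of the later age lay beyond every library of the earlier age in both. The BAD difference was -0.94 after median-of-ratios rescaling and -0.90 after quantile normalization, and then missed the study's standard. The 5 genes were 1 of 6 members and 4 of 25 pathway genes, against 13.7% of all genes at the same unadjusted threshold.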

How the results depend on the processing

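Counts of genes meeting the study's standard in limma were 399, 636, 615, 200 and 1000 for weaning in control litters, weaning in resveratrol litters, diet at 21 days, diet at 28 days and the difference of weaning changes. A pseudocount of 0.1 gave 783, 1237, 1185 and 456 for the first 4, a minimum of 5 FPKM, which tests fewer genes, gave 219, 212, 250, 112 and 364, and quantile normalization gave 410 for weaning in resveratrol litters. Leaving out single libraries gave 344 to 511, 385 to 1101, 407 to 1017, 195 to 358 and 633 to 1367. Counts moved by over 1.5 times without W_Con 3 (633, difference), W_Res 1 (1101 and 1017), W_Res 2 (385 and 407), W_Res 3 (948, diet at 21 days) and PW_Res 1 (358, diet at 28 days). Genes with an adjusted p under 0.05 went from 0 to 44 for weaning in control litters with a minimum of 5 FPKM, and from 0 to 110 and 130 for weaning in resveratrol litters without W_Res 1 or W_Res 3. Of the genes meeting the standard, 20.0% were higher at weaning in resveratrol litters, 69.9% for diet at 21 days, 42.0% for diet at 28 days and 23.3% for the difference, against 42.3%, 59.3%, 58.1% and 42.9% after median-of-ratios rescaling. The causes were not tested.

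Estimates near 0 changed sign. Median-of-ratios rescaling gave 0.097 for BAK1 at 28 days, 0.10 for the BCL2L1 difference and -0.014 for CASP9 at 21 days. Quantile normalization gave 0.062 for the BCL2L1 difference, -0.0012 for MCL1 at 28 days, -0.034 for CASP9 at 21 days and 0.076 for the FASLG difference. Without W_Res 2 and 3, chosen after seeing the data, values were 0.13 for BAK1 at 21 days, -0.13 for the BAK1 difference, 0.016 for the BCL2L1 difference and -0.0085 for CASP9 at weaning in resveratrol litters.

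Leaving out single libraries changed the sign, over the ranges given, for BAK1 (diet at 21 days -0.30 to 0.23, diet at 28 days -0.081 to 0.11, difference -0.23 to 0.30), BID (weaning in control litters -0.023 to 0.13, diet at 28 days -0.043 to 0.33) and BCL2L1 (weaning in resveratrol litters -0.094 to 0.32, difference -0.25 to 0.17). The same held for MCL1 (weaning in control litters -0.36 to 0.021, diet at 28 days -0.13 to 0.25), CASP9 (weaning in resveratrol litters -0.062 to 0.083) and FAS (weaning in resveratrol litters -0.80 to 0.059, diet at 21 days -0.79 to 0.074). In the pathway it held for FASLG (difference -0.57 to 0.13, weaning in control litters -0.49 to 0.21) and XIAP (diet at 21 days -0.83 to 0.38, weaning in resveratrol litters -0.77 to 0.57). With a pseudocount of 0.1, FAS (-1.06), FASLG (-1.51) and TNF (-1.29) at 28 days met the standard, and without W_Res 2 and 3 the XIAP difference did (2.78). FASLG at 28 days had an unadjusted limma P of 0.0209 without W_Con 3. XIAP at weaning in control litters met it without PW_Con 1 (-1.88), and TNF at 28 days also without PW_Con 2 (-1.22) or PW_Res 1.

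Deviations from the group means were correlated between libraries with the same replicate number. Of 12 such pairs across groups, 2 had a correlation over 0.1 (range -0.26 to 0.11), and 3 of 12 were highest with their own number. With 3 libraries per group these correlations cannot show whether libraries came from the same litter. With the replicate block the counts were 401, 641, 640, 209 and 1059. Depth behind single genes is unknown, and 3 piglets per group limit every comparison.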
